A study of Mus musculus with 6 samples.

Results

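The 83 cytosolic ribosomal protein genes of MC3T3-E1 cells were examined in RNA-seq libraries made with and without cyanidin-3-O-glucoside (C3G), a plant pigment of the anthocyanin class. MC3T3-E1 cells are mouse preosteoblasts, an established line derived from the calvaria. They were at passage 4, and the labels give the strain as C57BL/6. All cultures spent 24 h in serum-free medium and then 24 h in complete medium, which held 100 μmol/L C3G in the C3G group (3 libraries) and no C3G in the control group (3 libraries). A member is a listed gene whose symbol marks it as an *Rpl*, *Rplp*, *Rps* or *Rpsa* gene, and 83 of the 11234 listed genes are members, 49 of the large subunit and 34 of the small subunit. Of the 86 protein-coding genes of GENCODE M21 that meet this rule, *Rpl3l*, *Rpl10l* and *Rpl39l* are not analysed here. The symbol rule also takes in *Rps19bp1*, whose product binds Rps19 and is not a ribosomal subunit, and 5 second copies or relatives of subunit genes (*Rpl7l1*, *Rpl22l1*, *Rpl36al*, *Rps27l* and *Rps27rt*). It leaves out the subunit genes *Fau* and *Rack1*, which are described beside the members.

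Ribosomal proteins and ribosomal RNA are put together in the nucleolus into a small subunit, which reads the mRNA, and a large subunit, which joins amino acids. Most of these proteins are needed in equal amounts, and their mRNAs begin with a run of pyrimidines, the terminal oligopyrimidine (TOP) motif, through which mTOR signalling and the protein LARP1 control how well they are translated. The osteoblast lineage secretes large amounts of collagen, and its need for protein synthesis is correspondingly high. mRNA levels, which are all that was measured here, do not show how well an mRNA is translated.

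The symbol rule did not use the letters around the annotated start, and some of these genes hold the same short motifs there. The windows below run 5′ to 3′ on the strand of the gene, from 10 bases before the RefSeq start (GRCm38.p6) to 20 bases after it, and capitals mark the longest run of C and T (in *Rps27rt* a run of equal length lies just before it). *Rps6* and *Rpl35* are shown for a pyrimidine run at the start, *Rplp0* and *Rpl39* for a run that lies further in, and *Rps27* with its retrogene copy *Rps27rt* because the copies share the letters after the run.
Rps6 (chr4:86857348-86857377, minus strand): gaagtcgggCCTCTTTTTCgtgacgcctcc
Rpl35 (chr2:39005112-39005141, minus strand): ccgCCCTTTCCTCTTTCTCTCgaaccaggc
Rplp0 (chr5:115559457-115559486, plus strand): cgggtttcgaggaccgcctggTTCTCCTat
Rpl39 (chrX:37085203-37085232, minus strand): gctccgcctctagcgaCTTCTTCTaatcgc
Rps27 (chr3:90213629-90213658, minus strand): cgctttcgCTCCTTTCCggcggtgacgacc
Rps27rt (chr9:114982720-114982749, minus strand): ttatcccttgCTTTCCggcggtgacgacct

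A start entry was found for 63 of the 83 members. The letters CTTT occurred on the sense strand of this 30-base window in 19 of the 63 members (30.2%) and in 13.5% of 27025 genes with an entry. Over 300 bases (250 before the start and 50 after it, both strands), CCGGAAG, the core letters bound by ETS factors, occurred in 25 of the 63 members (39.7%) and in 9.93% of all entries. TATAAA, the TATA box, occurred in 7 members (11.1%) and in 15.7% of all entries over the same bases. No motif contains another, and a match describes letters only. The 27025 genes were not limited to those listed here, so these shares do not compare the members with other expressed genes. The annotated start can differ from the base at which transcription begins. *Rps27* and *Rps27rt* shared an unbroken stretch of 38 of these 300 bases.

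The values are FPKM (mapped fragments scaled for the length of the gene model and for the library total), as the authors deposited them, so levels of different genes are compared per length. The depth of each library is unknown, which leaves the spread between libraries as the error. The labels call the 3 samples of a group replicates and do not say whether they were separate cultures, so p values measure the spread between these samples, which may be technical. Replicate 1 of both groups stood apart from replicates 2 and 3, control replicate 1 the further. The order of the 83 levels in control replicate 1 correlated with that in the other 5 libraries at a Spearman rho of 0.852 to 0.873, and these 5 correlated among themselves at 0.980 to 0.996 (across genes, which are not independent). The comparison of the groups is therefore also given from replicates 2 and 3 alone. The defining genes of the lineage were present (11 of 11 osteoblast lineage markers listed), among them *Col1a1*, the main collagen chain of bone, at 4432, 942 and 1221 FPKM in control and 1478, 923 and 1246 FPKM in C3G, the highest value again in control replicate 1. *Runx2*, the lineage's transcription factor, stood at 7.59 and 8.38 FPKM, and *Sp7* (osterix) was low at 0.592 and 0.492 FPKM. Of the markers of other cell types, 3 of 8 macrophage, 2 of 3 chondrocyte, 1 of 3 epithelial, 0 of 3 endothelial and 0 of 4 adipocyte genes were listed. The summed macrophage markers ranged from 32.7 to 41.4 FPKM in control and from 46.2 to 56.4 FPKM in C3G, nearly all of it *Lyz2* (lysozyme, 36.9 and 50.5 FPKM), the only marker called higher with C3G. *Cd68* and *C1qb* had group means under 1 FPKM, and the other 5 macrophage markers, the defining *Ptprc*, *Adgre1* and *Csf1r* among them, are not in the list. The chondrocyte genes *Sox9* (70.3 and 60.8 FPKM) and *Col2a1* (65.0 and 39.1 FPKM) summed to 91.9 to 211 FPKM in control and 87.8 to 111 FPKM in C3G. The part of these markers in the ribosomal protein values was not tested.

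Ribosomal protein mRNAs made up a large share of the transcriptome in every library. They held 13.4% of all summed FPKM in control replicate 1, 8.09% in control replicate 2 and 8.48% in control replicate 3. They held 10.7%, 8.19% and 7.99% in C3G replicates 1 to 3. The replicate 1 libraries were the highest of each group, and the other 4 lay between 7.99% and 8.48%, with the control and C3G values interleaved. The large subunit took 8.50%, 5.13% and 5.35% of summed FPKM in control and 6.78%, 5.24% and 5.07% in C3G. The small subunit took 4.94%, 2.96% and 3.13% in control and 3.93%, 2.96% and 2.92% in C3G. The median member stood at 246, 162 and 179 FPKM in control and at 225, 172 and 159.5 FPKM in C3G. In bulk RNA, fewer cells with a high ribosome content and less ribosomal mRNA per cell cannot be told apart.

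The 83 mRNAs differed in level by a factor of 111, and the 77 that remain without *Rps19bp1* and the 5 second copies or relatives by a factor of 23.5, down to *Rps15a* at 47.2 FPKM. The highest means over the 6 libraries belonged to *Rpl8* (1110 FPKM), *Rps15* (1069 FPKM) and *Rpl41* (1023 FPKM), which encodes the smallest protein of the ribosome, with *Rplp1* next at 1022 FPKM. This order rests on control replicate 1. Over the other 5 libraries the means were 999 FPKM for *Rpl8*, 998 FPKM for *Rplp1*, 919 FPKM for *Rps15* and 855 FPKM for *Rpl41*. *Rpl8* was above both *Rps15* and *Rpl41* in 5 of the 6 libraries, all but control replicate 1, and above *Rplp1* in 4 of 6. The lowest were *Rps27rt* (9.97 FPKM), *Rpl22l1* (29.5 FPKM) and *Rps19bp1* (29.9 FPKM), a retrogene copy, a paralog and a binding protein rather than core subunits. The middle of the members ran from 118 to 286 FPKM (25th and 75th percentile), and 78 of 83 reached a mean of 50 FPKM.

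**Figure D1:**
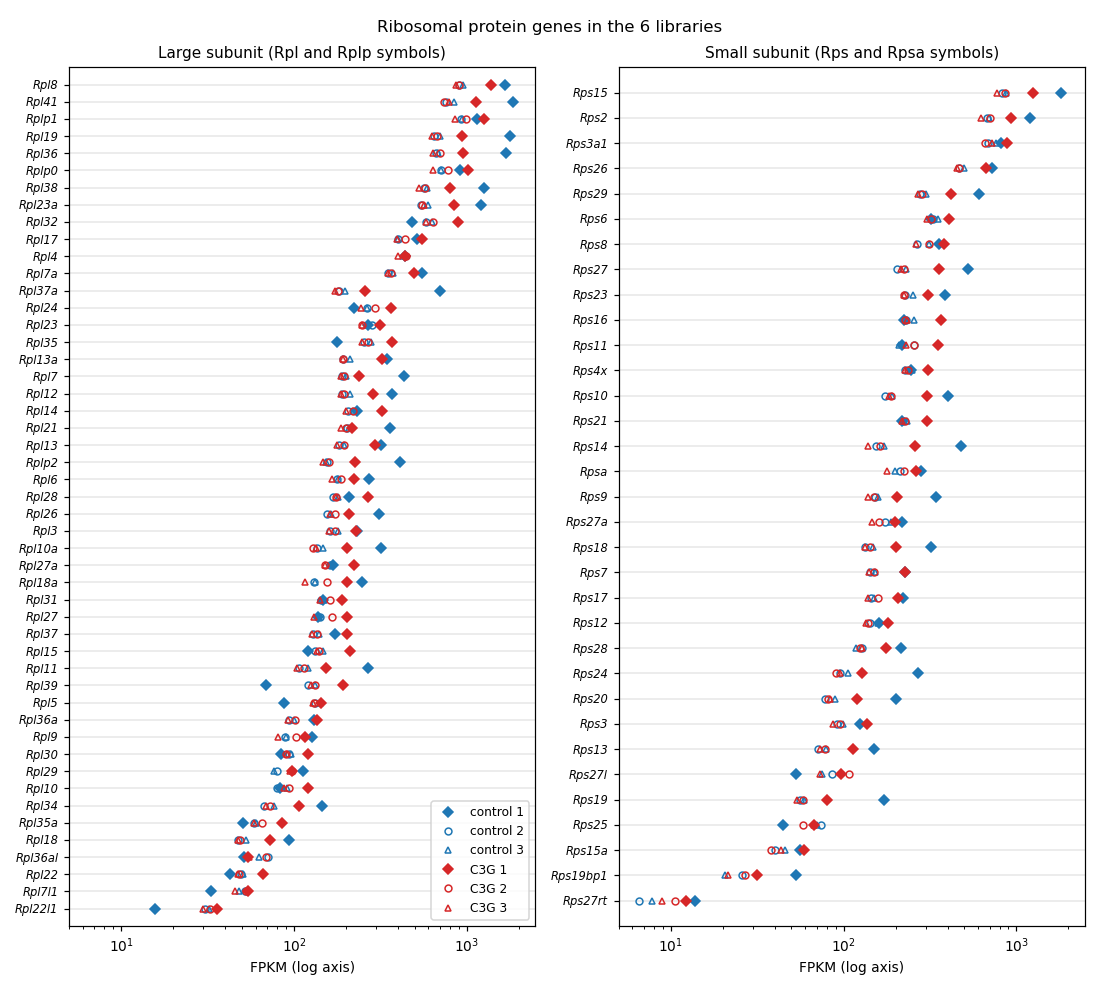
FPKM of 82 of the genes in each of the 6 libraries, on a log axis, with large subunit genes at left and small subunit genes at right, ordered by mean. Filled diamonds are replicate 1 and open symbols replicates 2 and 3 (blue control, red C3G), and the open symbols lie close together in both groups while the diamonds stand mostly to the right, those of control replicate 1 on both sides.

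The comparison of C3G with control asked which genes respond to the pigment, and no ribosomal protein gene passed the test. With limma over all 11234 genes, 0 of 83 members were called (unadjusted p under 0.05 together with a fold of 1.2 or more), against 0.650% of all genes (0.401% higher and 0.249% lower), and 0 members had an unadjusted p under 0.05. The smallest p of a member was 0.139 (*Rpl39*, limma), the smallest Benjamini-Hochberg adjusted p of a member was 0.992, and the smallest over all genes was 0.497. The exact permutation test, whose smallest possible p is 0.1 with 3 against 3, gave no member a p below 0.2. The ranges of the groups overlapped in 83 of 83 members, whereas 4.02% of all genes had groups that did not overlap. The fitted log2 fold changes had a median of -0.03 (all genes 0.06), with 33 members above 0 and 50 below, and they ran from -0.54 (*Rpl37a*) to 0.51 (*Rpl39*). This median and its sign rested on single libraries, since it was 0.14 with 76 of 83 members above 0 without control replicate 1, and -0.19 with 19 above 0 without C3G replicate 1. The median was -0.02 for the large subunit and -0.08 for the small subunit. The 95% interval of a member reached a median of 0.60 on the log2 scale to either side of its estimate, so a fold change of 1.2 was not detectable for most members.

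**Figure D2:**
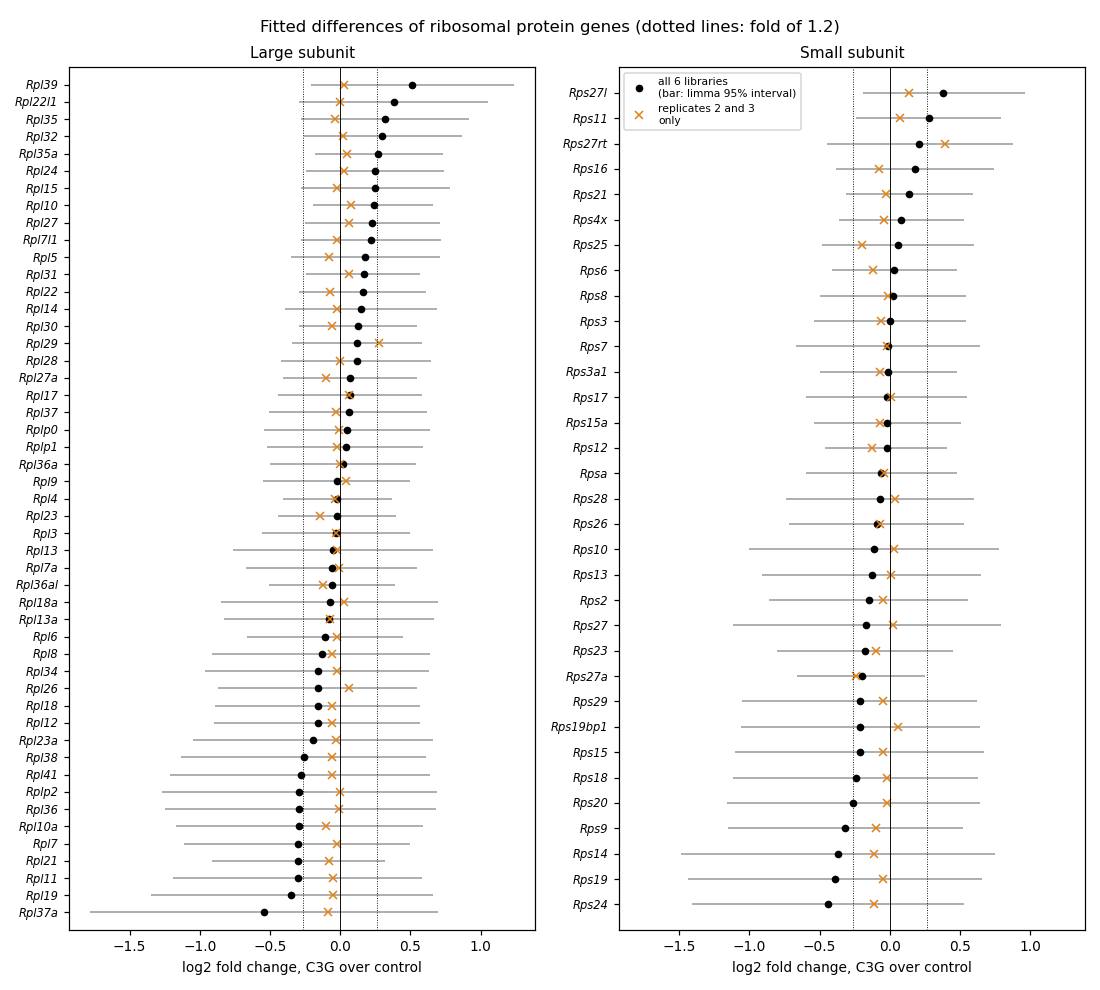
Log2 fold change of C3G over control for 82 of the genes, large subunit at left and small subunit at right. Black points with bars are the limma estimate and its 95% interval from 6 libraries, orange crosses the estimate from replicates 2 and 3 only, and dotted lines a fold of 1.2. Every bar crosses 0, and most crosses lie within 0.1 of it.

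Replicates 2 and 3 alone gave a narrower picture. The fitted log2 fold changes from these 4 libraries had a median of -0.03, and 69 of 83 members (83.1%) lay within 0.1 of 0, as did 82.6% of the 774 other genes with a mean of at least 50 FPKM and 71.9% of all genes. The coefficient of variation over these 4 libraries had a median of 5.29% over the members (5.99% over the 774 other genes), from 2.61% for *Rpl30* to 20.2% for *Rps27rt*, and it was under 10% for 74 members. Over all 6 libraries its median was 22.0%. From these 4 libraries 2 members were called higher (0.783% of all genes were), *Rpl29* and *Rps27rt*. With all libraries but control replicate 1 the same 2 members were called higher (0.677% of all genes). The replicate number as a block called 0 members higher (0.890% of all genes), and the block with a GC correction called *Rpl29* (1.06% of all genes).

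The P stalk of the large subunit, which draws in the GTPases that drive elongation, showed no member past the test. *Rplp0*, its base, lies at chr5:115559467-115563727 on the plus strand (GRCm38; ENSMUSG00000067274.10). *Rplp0* stood at 909, 709 and 706 FPKM in control replicates 1 to 3 and at 1016, 778 and 638 FPKM in C3G replicates 1 to 3. The C3G values enclose the control values. Group means were 775 ± 117 and 811 ± 191 FPKM (SD, n = 3), and the log2 fold change was 0.05 (SE 0.25, 95% interval -0.54 to 0.64, exact permutation p = 0.8). *Rplp1*, which forms dimers with Rplp2 on the stalk, stood at 1146, 927 and 942 FPKM in control and 1267, 992 and 859 FPKM in C3G (log2 fold change 0.04, SE 0.23, exact permutation p = 0.8). *Rplp2* stood at 409, 155 and 154 FPKM in control and 225, 161 and 148 FPKM in C3G (log2 fold change -0.29, SE 0.41, exact permutation p = 0.7). Control replicate 1 was far above its group for *Rplp2* and only modestly so for its partner *Rplp1*.

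*Rps6* encodes the small subunit protein that S6 kinases phosphorylate downstream of mTOR. It lies at chr4:86854660-86857412 on the minus strand. *Rps6* stood at 322, 328 and 353 FPKM in control and at 407, 321 and 305 FPKM in C3G. The groups overlapped, with C3G replicate 1 the highest library and C3G replicate 3 the lowest. The means were 334 ± 16.6 and 344 ± 54.8 FPKM (SD, n = 3), and the log2 fold change was 0.03 (95% interval -0.41 to 0.48, exact permutation p = 1). In its longest coding transcript, 84.1% of all runs of 75 bases are also found in transcripts of other genes. Reads that lie within shared runs could have been split among copies.

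Among the 8 proteins at the rim of the tunnel through which the new chain leaves the ribosome, 0 were called. Their median log2 fold change was 0.11 over 6 libraries and -0.00 from replicates 2 and 3. *Rpl39*, a tunnel protein and the member with the smallest p, lies at chrX:37082520-37085402 on the minus strand. *Rpl39* stood at 68.8, 120.4 and 133 FPKM in control and at 193, 132 and 125 FPKM in C3G. Control replicate 1 was the lowest library and C3G replicate 1 the highest, and the other 4 lay between 120.4 and 133 FPKM. The log2 fold change of *Rpl39* was 0.51 (SE 0.30, 95% interval -0.21 to 1.24, exact permutation p = 0.3) over 6 libraries and 0.03 from replicates 2 and 3. *Rpl35*, also at the tunnel exit, also had its lowest value in control replicate 1 and its highest in C3G replicate 1. *Rpl35* stood at 177, 255 and 279 FPKM in control and 369, 270 and 248 FPKM in C3G. Its log2 fold change was 0.32 (SE 0.25, exact permutation p = 0.5) over 6 libraries and -0.04 from replicates 2 and 3.

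The other members with the smallest p among those fitted higher were *Rps27l*, *Rpl35a*, *Rpl22l1* and *Rpl10*. *Rps27l*, a paralog of *Rps27* known as a p53 target, stood at 52.8, 85.4 and 74.8 FPKM in control and 97.2, 107 and 72.8 FPKM in C3G (log2 fold change 0.38, exact permutation p = 0.3). *Rpl35a*, mutated in some families with Diamond-Blackfan anaemia, stood at 50.8, 58.8 and 60.6 FPKM in control and 85.0, 65.0 and 58.6 FPKM in C3G (0.27, exact permutation p = 0.3). Both had their lowest value in control replicate 1. *Rpl22l1*, the paralog of the RNA-binding subunit *Rpl22*, stood at 15.7, 30.4 and 32.2 FPKM in control and 35.7, 32.9 and 29.9 FPKM in C3G (0.38, exact permutation p = 0.3). *Rpl10*, which joins the large subunit late in its assembly, stood at 82.9, 80.2 and 91.5 FPKM in control and 121, 94.2 and 87.5 FPKM in C3G (0.24, exact permutation p = 0.2). From replicates 2 and 3 these log2 fold changes were 0.14 for *Rps27l*, 0.05 for *Rpl35a*, 0.00 for *Rpl22l1* and 0.08 for *Rpl10*. Without control replicate 1 that of *Rpl22l1* was 0.06. No member had a smaller exact permutation p than *Rpl10*, and 84.9% of its 75-base stretches are shared with other genes.

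Those with the smallest p among the members fitted lower were *Rpl21*, *Rps24*, *Rps27a*, *Rpl37a* and *Rps9*, and in each of them control replicate 1 was the highest library. *Rpl37a*, a zinc-binding protein of the large subunit, stood at 697, 182 and 197 FPKM in control and at 258, 181 and 174 FPKM in C3G. Its control replicate 1 was far above the other 5 libraries, and the log2 fold change of -0.54 (SE 0.52, 95% interval -1.78 to 0.70, exact permutation p = 0.5) became -0.09 from replicates 2 and 3. *Rps24*, a Diamond-Blackfan gene, stood at 271, 95.9 and 106 FPKM in control and 127, 90.8 and 95.0 FPKM in C3G (log2 fold change -0.44, exact permutation p = 0.5). *Rpl21*, a large subunit protein, stood at 359.5, 202 and 207 FPKM in control and 216, 201 and 187 FPKM in C3G (-0.30, exact permutation p = 0.4). *Rps9*, which lines the mRNA entry channel with Rps2 and Rps3, stood at 344, 152 and 158 FPKM in control and 203, 150.4 and 139 FPKM in C3G (-0.32, exact permutation p = 0.5). Without control replicate 1 the fitted differences of *Rps24*, *Rpl37a* and *Rps9* changed sign, to 0.04, 0.09 and 0.06, and that of *Rpl21* became -0.03.

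*Rps27a*, which is made as a fusion with ubiquitin, was the member with the lowest estimate from replicates 2 and 3. *Rps27a* stood at 217, 174 and 188 FPKM in control and 199, 160.0 and 146 FPKM in C3G. C3G was lower in each of the 3 same-numbered pairs, but the groups overlapped. Over 6 libraries its log2 fold change was -0.20 (SE 0.19, exact permutation p = 0.3). From replicates 2 and 3 it was -0.24, with an unadjusted limma p under 0.05 but short of a fold of 1.2.

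*Rpl29* (chr9:106429454-106431568, plus strand), a large subunit protein also known for binding heparin, had nearly equal values in the 3 C3G libraries. It stood at 114, 80.2 and 77.0 FPKM in control and at 97.5, 97.0 and 94.7 FPKM in C3G. All 3 C3G libraries lay above control replicates 2 and 3 and below control replicate 1. The log2 fold change of *Rpl29* was 0.12 (95% interval -0.34 to 0.58, exact permutation p = 0.4) over 6 libraries, 0.28 from replicates 2 and 3, and 0.29 without control replicate 1. *Rps27rt* (chr9:114982366-114982739, minus strand) stood at 13.8, 6.57 and 7.75 FPKM in control and 12.3, 10.6 and 8.89 FPKM in C3G, with the same placing of control replicate 1. Over 6 libraries its log2 fold change was 0.21 (exact permutation p = 0.5), from replicates 2 and 3 it was 0.39, and without control replicate 1 it was 0.50. For both genes these estimates had an unadjusted limma p under 0.05 and an adjusted p of 1.00 (replicates 2 and 3). Both share 75-base stretches with other genes, 46.2% of them for *Rpl29* and 90.3% for *Rps27rt*.

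The remaining structural groups each had 0 members called. *Rpl5* and *Rpl11*, which carry the 5S rRNA into the large subunit and bind the p53 regulator Mdm2, had a median log2 fold change of -0.06 and went apart in control replicate 1. *Rpl5* stood at 87.3, 133 and 142 FPKM in control and 143, 131 and 129 FPKM in C3G. *Rpl11* stood at 269, 107 and 121 FPKM in control and 153, 115 and 105 FPKM in C3G. The median log2 fold change was -0.15 over the mRNA entry channel genes *Rps2*, *Rps3* and *Rps9*, and -0.11 over the beak genes *Rps10*, *Rps12* and *Rps27a*. Over 9 genes mutated in Diamond-Blackfan anaemia, an anaemia of failing red cell precursors, it was -0.09. *Rps19*, the gene most often mutated in it, stood at 170.3, 56.2 and 58.9 FPKM in control and 80.2, 57.9 and 53.5 FPKM in C3G.

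The subunit genes *Fau* and *Rack1*, outside the symbol rule, lay in the same range, with 0 called. *Fau*, which encodes Rps30 fused to a ubiquitin-like protein, stood at 1555, 425 and 485 FPKM in control and 655, 427 and 416 FPKM in C3G (log2 fold change -0.49, SE 0.51, exact permutation p = 0.6). *Rack1*, the signalling scaffold on the head of the small subunit, stood at 136, 91.1 and 114 FPKM in control and 151, 96.1 and 109 FPKM in C3G (0.06, SE 0.24, exact permutation p = 0.8). The groups overlapped for both. Replicates 2 and 3 alone gave log2 fold changes of -0.11 for *Fau* and 0.01 for *Rack1*.

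The departure of the replicate 1 libraries was the most visible feature of the members, and it differed between the groups. On the log2(FPKM + 1) scale, control replicate 1 departed from the mean of control replicates 2 and 3 by a median of 0.52 (SD over members 0.65), and 62 of 83 members were above. The departures ran from -0.95 (*Rpl22l1*) to 1.87 (*Rpl37a*), with 23 members over 1, 43 over 0.5 and 7 under -0.5. C3G replicate 1 departed from C3G replicates 2 and 3 by a median of 0.49 (SD 0.18), and 82 of 83 members were above, with *Rpl36al* the exception at -0.18. Of the members, 71 lay within 0.25 of the median departure in C3G replicate 1 and 19 did in control replicate 1. The departure was thus near uniform over the members in C3G replicate 1 and uneven in control replicate 1. These are descriptions of single libraries, with no test.

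**Figure D3:**
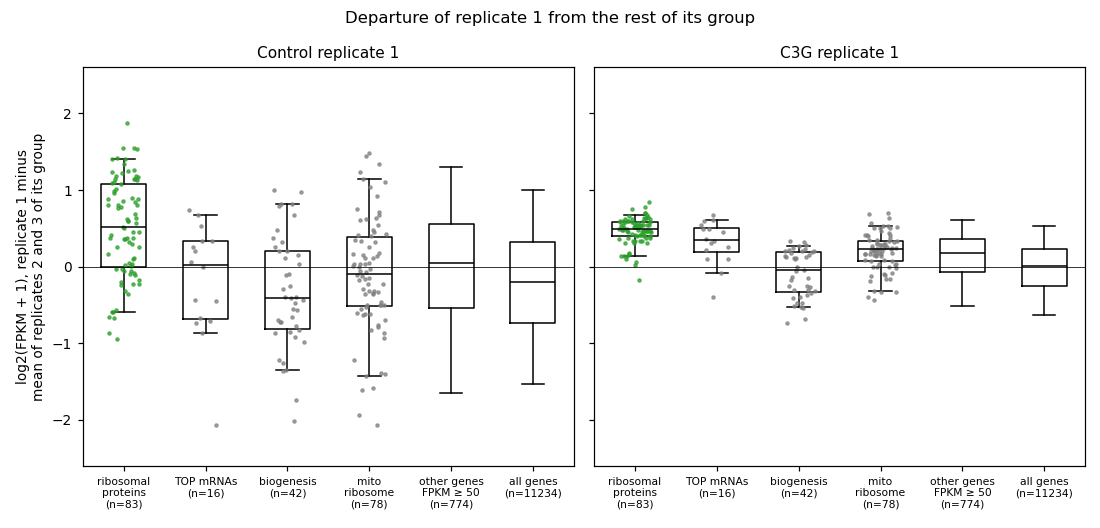
Departure of replicate 1 from the mean of replicates 2 and 3 of its group on the log2(FPKM + 1) scale, control at left and C3G at right, for the ribosomal protein genes (green), the other lists (grey points) and larger gene groups (boxes only). Boxes show the median and quartiles and whiskers the 5th and 95th percentile, with genes of the larger groups beyond the whiskers not drawn. The members sit around 0.52 in control replicate 1 with a wide spread, and around 0.49 in C3G replicate 1 with a narrow one.

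*Fau* (1.77 in control replicate 1 and 0.63 in C3G replicate 1) and *Rack1* (0.42 and 0.56) departed upward as the members did, and the other lists of the pathway had smaller median departures than the members. In control replicate 1 and C3G replicate 1, the median departure was 0.03 and 0.35 for 16 translation factors and other TOP mRNAs. It was -0.41 and -0.05 for 42 ribosome biogenesis genes, and -0.09 and 0.22 for 78 genes with mitochondrial ribosomal protein symbols. It was 0.04 and 0.18 for the 774 other genes with a mean of at least 50 FPKM, and -0.20 and 0.01 for all genes. Over the members, Spearman's rho of the departure with the GC content of the longest coding transcript was 0.368 in control replicate 1 and 0.363 in C3G replicate 1 (83 genes of the same libraries). With the GC content of the longest annotated transcript, coding or not, it was 0.359 and 0.375 over the members and 0.748 and 0.631 over 11211 genes. In control replicate 1 rho was -0.133 with transcript length, 0.224 with mean FPKM and 0.0342 with the share of 75-base stretches found in other genes. The departures of both replicate 1 libraries correlated at a rho of 0.409 over the members. After subtracting a smooth trend in the GC content of the longest annotated transcript, fitted over all genes, the median departures were 0.61 and 0.44, with 68 and 81 of 83 members above 0 in control and C3G. The part of any library property other than GC in these departures was not tested.

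**Figure D4:**
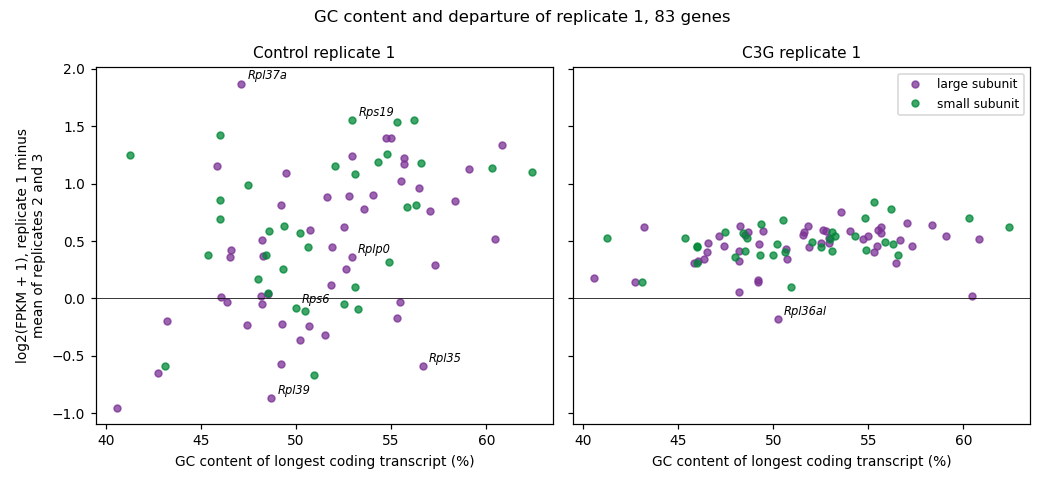
Departure of replicate 1 on the log2(FPKM + 1) scale against the GC content of the longest coding transcript in percent, 1 point per gene, control at left and C3G at right, purple for the large and green for the small subunit. In control replicate 1 the points spread from -0.95 to 1.87 at a rho of 0.368, and in C3G replicate 1 all but *Rpl36al* lie above 0.

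Same-numbered libraries were also compared in pairs. C3G minus control had a median over the members of -0.10 in pair 1, 0.06 in pair 2 and -0.13 in pair 3 on the log2 scale, against 0.19, -0.01 and -0.01 over all genes. C3G was the higher library for 38, 58 and 5 of the 83 members in these pairs. 0 members were higher with C3G in all 3 pairs (14.2% of all genes were), and 11 members (13.3%) were lower in all 3, as were 11.6% of all genes. The 774 other genes with a mean of at least 50 FPKM had a median of -0.06 in pair 3, where 175 were higher. Of them 8.40% were higher and 16.4% lower in all 3 pairs. Among the 16 translation factors and other TOP mRNAs, 0 were higher in pair 3. *Rpl21*, *Rpl37a*, *Rpl41*, *Rps9*, *Rps24* and *Rps27a* were among the 11 members lower in all 3 pairs.

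Pairs of paralogs were compared as the ratio of the second copy to the first, which needs no scaling between libraries. *Rps27l* stood at 0.101, 0.417 and 0.326 of *Rps27* in control and at 0.271, 0.476 and 0.337 in C3G. *Rpl7l1* stood at 0.0767, 0.276 and 0.239 of *Rpl7* in control and 0.229, 0.271 and 0.245 in C3G. *Rpl22l1* stood at 0.366, 0.615 and 0.631 of *Rpl22* in control and 0.537, 0.684 and 0.628 in C3G. In all of these the replicate 1 libraries had the lowest ratio of their group. *Rpl36al* stood at 0.396, 0.750 and 0.628 of its relative *Rpl36a* in control and 0.397, 0.675 and 0.592 in C3G. *Rps27rt* stood at 0.0264, 0.0321 and 0.0337 of *Rps27* in control and 0.0342, 0.0470 and 0.0412 in C3G, so that all C3G ratios were above all control ratios. The difference of *Rps27rt* over *Rps27* was 0.40 on the log2 scale with an exact permutation p of 0.1, the smallest possible, which became 0.5 after adjustment over the 5 ratios. Each of these copies is among the genes that share 75-base stretches with the other, so reads could have been assigned to either. The other 4 ratios had exact permutation p values from 0.6 to 0.8. The first copies *Rpl3* (191 ± 36.8 and 187 ± 36.2 FPKM, SD, n = 3) and *Rps4x* (241 ± 11.4 and 258 ± 45.1 FPKM) had log2 fold changes of -0.03 and 0.08, with their second copies not analysed here.

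**Figure D5:**
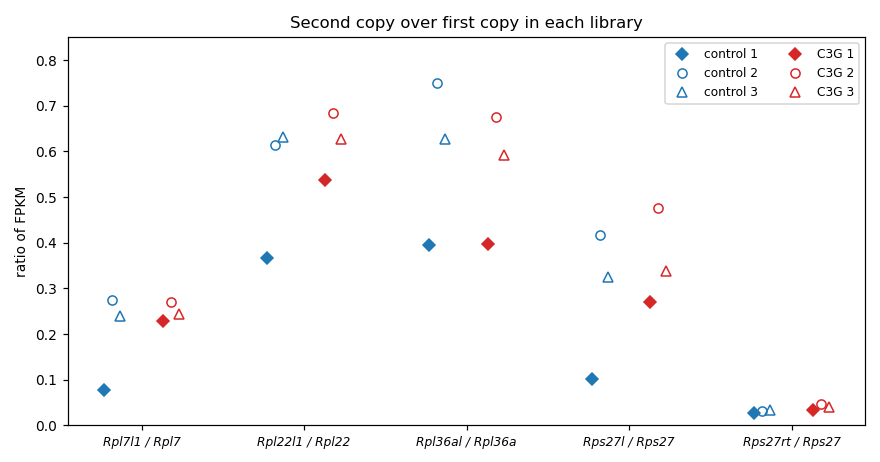
Ratio of the FPKM of the second copy to that of the first copy in each library, for 5 pairs, with filled diamonds for replicate 1 (blue control, red C3G) and open symbols for replicates 2 and 3. Control replicate 1 has the lowest ratio in each pair, and the *Rps27rt* ratios lie between 0.0264 and 0.0470.

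None of the other lists of the pathway held a gene past the test. Of the 16 translation factors and other TOP mRNAs, 0 were called. Their median log2 fold change was 0.09 over 6 libraries and -0.04 from replicates 2 and 3. *Eif3l* and *Eif3e*, subunits of the factor that brings the small subunit to the mRNA, had log2 fold changes of 0.33 (SE 0.24, exact permutation p = 0.3) and 0.70 (SE 0.55, exact permutation p = 0.5). *Eif3e* was at 10.5 FPKM in control replicate 1 and between 43.9 and 49.9 FPKM in the other 5 libraries, and *Eif3l* was also lowest there (58.8 FPKM against 95.0 and 92.8 FPKM in the other controls). From replicates 2 and 3 the log2 fold changes were 0.01 for *Eif3l* and -0.02 for *Eif3e*. *Eif3k* and the elongation factor gene *Eef1b2* had -0.11 and -0.07. Of the 42 ribosome biogenesis genes 0 were called, with a median of -0.02 over 6 libraries and -0.10 from replicates 2 and 3 (all genes -0.01). In same-numbered pairs C3G was the higher library for 23, 6 and 6 of the 42, and 14 of them (33.3%) were lower with C3G in all 3 pairs, as were 11.6% of all genes. *Ebna1bp2*, which helps assemble the large subunit, stood at 17.6, 17.5 and 16.6 FPKM in control and 12.4, 15.7 and 14.5 FPKM in C3G, without overlap (log2 fold change -0.27, SE 0.15, exact permutation p = 0.1). *Nolc1*, a nucleolar chaperone, was the other biogenesis gene whose groups did not overlap (means of 35.9 and 31.4 FPKM, log2 fold change -0.18, exact permutation p = 0.1), so that 2 of 42 were lower in every C3G library, against 1.48% of all genes. The log2 fold change of *Noc2l* was -0.41 (exact permutation p = 0.3), that of *Nop10* 0.49 (exact permutation p = 0.4) and that of *Mrto4* 0.32 (exact permutation p = 0.4). In each of these 3, control replicate 1 lay far from control replicates 2 and 3, at 50.5 against 25.8 and 23.8 FPKM for *Noc2l*, 15.0 against 40.4 and 40.0 FPKM for *Nop10*, and 6.33 against 13.7 and 12.1 FPKM for *Mrto4*. From replicates 2 and 3 their log2 fold changes were -0.15, 0.00 and -0.03.

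A further list held the 78 genes with mitochondrial ribosomal protein symbols (*Mrpl* or *Mrps*). Mitochondrial ribosomes translate the mRNAs of mitochondrial DNA, but whether each product is part of them was not checked. Of these genes 0 were called, and the median log2 fold change was 0.05 over 6 libraries and -0.04 from replicates 2 and 3. *Mrps36* had 0.66 (exact permutation p = 0.1, groups without overlap) and *Mrpl30* 0.35 (p = 0.3). *Mrpl33* had -0.27 (exact permutation p = 0.3) and *Mrps26* -0.42 (p = 0.5). *Mrps26* stood at 25.9 FPKM in control replicate 1 and between 9.63 and 11.5 FPKM in the other 5 libraries. From replicates 2 and 3 the log2 fold changes were 0.20 for *Mrps36*, 0.10 for *Mrpl30*, -0.10 for *Mrpl33* and -0.08 for *Mrps26*. In all, 4 genes of this list were higher and 1 was lower without overlap, beside 2.55% and 1.48% of all genes. Of 19 regulators of ribosomal protein synthesis (mTOR complexes, S6 kinases and their targets, and *Myc*), 0 were called, with a median of 0.03. *Mtor* itself stood between 3.17 and 3.48 FPKM in the 6 libraries. *Eif4ebp2*, a translation repressor that mTOR inactivates, had 0.20 (exact permutation p = 0.1) and was the only regulator whose groups did not overlap. *Rps6ka5* had 0.29 (exact permutation p = 0.5), the S6 kinase gene *Rps6kb2* -0.21 (p = 0.2) and the mTOR inhibitor gene *Akt1s1* -0.26 (p = 0.6). From replicates 2 and 3 the log2 fold changes of these 4 were 0.06, 0.16, -0.28 and -0.11.

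Reads of ribosomal protein genes are hard to assign, since the mouse genome holds many processed copies of them. Of the 83 members, 80 shared 75-base stretches of their longest coding transcript with transcripts of other genes, at a median of 35.5% and up to 90.3%, and 26 shared over 50%. Exons of another gene overlapped those of 28 members on the same strand and of 19 on the opposite strand. Sequencing ran over 150 cycles, and a read longer than 75 bases can be unique although it holds a shared stretch. The shares can therefore overstate how many reads are ambiguous. How shared reads and strand were handled in counting is not given in the sources used here, so single levels carry this uncertainty.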

How the data were processed

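RNA from 3 control and 3 C3G libraries was sequenced with a stranded kit over 150 cycles. The authors ran FastQC on the reads and used Ballgown to obtain FPKM per gene, and the deposited FPKM files, 1 per library, were used as they are. The submitters' processing notes also name cutadapt, HISAT2 2.1.0, StringTie and STAR 2.5.2b without roles. They name the human build hg19, whereas the gene identifiers are mouse Ensembl identifiers, 9828 of which carry the version numbers of GENCODE M21. Positions are those of GENCODE M21 (GRCm38). A symbol was found for 11227 of 11234 genes. All genes listed have a mean of at least 0.5 FPKM in 1 group or both, and no further filter was applied, so all 83 members were tested. Depth cannot be given from FPKM, and the precision of a value is the spread between libraries.

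Samples were grouped by their labels. Values were transformed to log2(FPKM + 1), a scale that understates fold changes of low genes, and fitted over all genes with limma 3.58.1 (lmFit, eBayes with trend) under R 4.3.3 (1 term, the group). A call needed both an unadjusted p under 0.05 (two-sided) and a fold of 1.2 or more. Benjamini-Hochberg adjustment was over all genes, and for single values a two-sided exact permutation test was added. Python 3.11.15, pandas 2.3.3, numpy 2.4.6 and scipy 1.17.1 were used for the rest. The fit was run on simulated data with errors independent between libraries, which lack the shared departures of the replicate 1 libraries. The labels number the libraries 1 to 3 in each group and do not say that same-numbered libraries belong together. Deviations from the group means correlated at 0.653, 0.580 and 0.440 for the same number and at -0.640 to 0.307 otherwise. Such deviations cancel out within a group, so the departure of both replicate 1 libraries enters all of these values. They do not establish that the libraries were paired. The replicate number as a block was used as an alternative. Others were a pseudocount of 0.1, a minimum mean of 1 FPKM, no trend and other scalings. A GC correction (spline with 5 degrees of freedom), replicates 2 and 3 only, and leaving out each library were also used.

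Genes named are the markers, structural groups and paralogs, the 5 members of smallest p and the 3 of highest or lowest level in each direction, and 2 genes of smallest p per direction in each other list. *Rpl29*, *Rps27rt*, *Rpl35*, *Rpl5*, *Rpl11*, *Rps19*, *Nolc1* and *Mtor*, and the genes named only at the ends of a range or a count, were named after their values were seen. Members and lists were chosen with earlier results of these data known. Sequences were read from RefSeq tables by symbol. Single values of 2 genes are not reported here.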

Additional observations from a re-analysis of the deposited data

How the results depend on the processing

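Over 17 alternatives the 83 members gave 0 calls lower with C3G in each. Calls higher with C3G numbered 0 except with the GC correction together with the replicate block (1, *Rpl29* at 0.28, limma, where 1.06% of all genes were called higher), with replicates 2 and 3 only (2, *Rpl29* and *Rps27rt*), and in leaving out 1 library, which gave 0 to 2. The 2 calls came without control replicate 1 (*Rpl29* 0.29 and *Rps27rt* 0.50 on the log2 scale, limma), where 0.677% of all genes were called higher. The replicate block alone called 0 members and so changed no call of a member, while calls over all genes went from 73 to 169, and to 191 with replicates 2 and 3 only and 246 with the GC correction and the block.

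The median log2 fold change of the members went from -0.19 without C3G replicate 1, where 19 of 83 members were fitted higher, to 0.14 without control replicate 1, where 76 were. It was 0.02 without C3G replicate 2 and 0.04 without C3G replicate 3, so its sign rests on single libraries, and each of these values lies within the spread of the library medians (SD 0.29). Of 14 members followed under all alternatives, 220 values kept their direction and side of the thresholds, 13 changed sign and 5 came past the thresholds. Without control replicate 1, *Rps24* became 0.04, *Rpl37a* 0.09 and *Rps9* 0.06. *Rplp0* became -0.02 with quantile normalization and with median centring, -0.01 with replicates 2 and 3 only, -0.01 without control replicate 2 or 3 and -0.13 without C3G replicate 1. *Rps6* became -0.03 with median centring, -0.01 with libraries scaled on the sum of the genes outside the members, -0.12 with replicates 2 and 3 only and -0.09 without C3G replicate 1. Leaving out 1 library moved *Rpl39* between 0.22 and 0.69, *Rpl37a* between -0.88 and 0.09, *Rps24* between -0.71 and 0.04, *Rps9* between -0.52 and 0.06, *Rplp0* between -0.13 and 0.21 and *Rps6* between -0.09 and 0.11. It moved *Rpl21* between -0.44 and -0.03, *Rps27a* between -0.33 and -0.11, *Rpl10* between 0.10 and 0.33, *Rpl35a* between 0.12 and 0.39, *Rps27l* between 0.19 and 0.55, *Rpl22l1* between 0.06 and 0.56, *Rpl29* between 0.01 and 0.29 and *Rps27rt* between 0.02 and 0.50. Control replicate 1 set the end nearest 0 or past it for *Rpl21*, *Rpl22l1*, *Rpl37a*, *Rpl39*, *Rps9*, *Rps24* and *Rps27l*, and C3G replicate 1 did for *Rpl10* and *Rpl35a*. The causes were not tested. The unknown depth and 3 libraries per group limit what could be seen.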
